A study of Bos taurus with 12 samples.

Results

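The genes described here were 10 bovine genes of blood vessel growth and of the receptor for nitric oxide: the growth factors VEGFA, ANGPT1, ANGPT2 and FGF2, the receptors KDR, FLT1 and TEK, the endothelial adhesion molecule PECAM1, and GUCY1A1 and GUCY1B1, the subunits of soluble guanylate cyclase. All probe sets to which the annotation of the chip gives one of these symbols were taken, whatever their values, which gave 17 of the 24,016 probe sets of the GeneChip Bovine Genome Array (a probe set is a group of short oligonucleotides that together measure 1 transcript). They were measured in endometrium, the inner lining of the uterus, which was brushed from Simmental heifers on cycle day 3 or on cycle day 7. In the following cycle each heifer received blastocysts produced in vitro, and the biopsies were then divided into high receptivity (HR), where an embryo was later detected by ultrasonography, and low receptivity (LR), where none was. Groups are called HR3, LR3, HR7 and LR7 after receptivity and day, with 3 pools of RNA from 5 biopsies and 1 array per pool, 12 arrays in all. Receptivity was thus defined by the outcome of a later transfer, all heifers were of 1 breed, the labels call the LR endometria non receptive, and which pools of different days came from the same heifers is not given.

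VEGFA is the main growth signal for blood vessels; it is induced by low oxygen and acts on endothelial cells through KDR, while FLT1 binds the same ligand with little signaling of its own. ANGPT1 activates the receptor TEK and stabilizes vessels, and ANGPT2 mostly opposes it, which loosens vessels for sprouting or regression. Nitric oxide made by endothelium binds the heme of soluble guanylate cyclase, a heterodimer whose product cGMP relaxes smooth muscle and widens vessels. In the uterus of cyclic animals the capillary bed grows and regresses with the ovarian hormones.

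Of the 10 genes, 3 could be tested after a filter on low signals, and of these VEGFA passed: it fell from day 3 to day 7. Over both groups 2 of the 4 tested probe sets passed, both of VEGFA, where 65.9% of all tested probe sets did. The first VEGFA probe set was 1.74-fold lower at day 7 over HR and LR together. Its 6 pools of day 3 did not overlap the 6 of day 7, and 7.08% of all probe sets were lower at day 7 in this way. The α1 subunit GUCY1A1 was 1.44-fold lower in HR7 than in LR7, without overlap between pools on either of its probe sets, but this did not pass adjustment. Of all probe sets, 3.56% were lower in HR7 without overlap. Without the filter, 26.5% of all 24,016 probe sets reached a limma adjusted p under 0.05 for day over both groups. ANGPT2 was then also among them, with a change of -1.13 (limma adjusted p = 0.0434). So was the second probe set of GUCY1A1, in the other direction, with 0.31 (limma adjusted p = 0.0279). Its change was 0.68 in LR and -0.06 in HR. With the filter, the brighter first probe set of GUCY1A1 changed by 0.04 over both groups and did not pass (limma adjusted p = 0.755). No probe set of the 10 genes passed in a comparison between HR and LR at either day.

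Signals are log2 values of the PLIER summary, on which a difference of 1 is a factor of 2, and levels of different probe sets are not comparable with each other. A probe set was tested in limma when it varied over the 12 arrays with a standard deviation of at least 0.2 and when, in 1 or more of the 4 groups, all 3 pools exceeded the median signal of their array. Tests were thereby limited to 7339 probe sets, and 4 of the 17 were among them: both of VEGFA, the first of GUCY1A1 and that of GUCY1B1, each above the median on all 12 arrays. The other 13, which include every probe set of KDR, FLT1, TEK, ANGPT1, ANGPT2, PECAM1 and FGF2, were above the median of none of the 12 arrays. ANGPT1 also fell short of the limit for variation, with a standard deviation of 0.176. For these 13 the values and changes are given without a call, and a p adjusted over all 24,016 probe sets is given where stated. Array medians lay between 6.63 and 6.77, shown as the grey band in the plot of signals by pool.

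**Figure D1:**
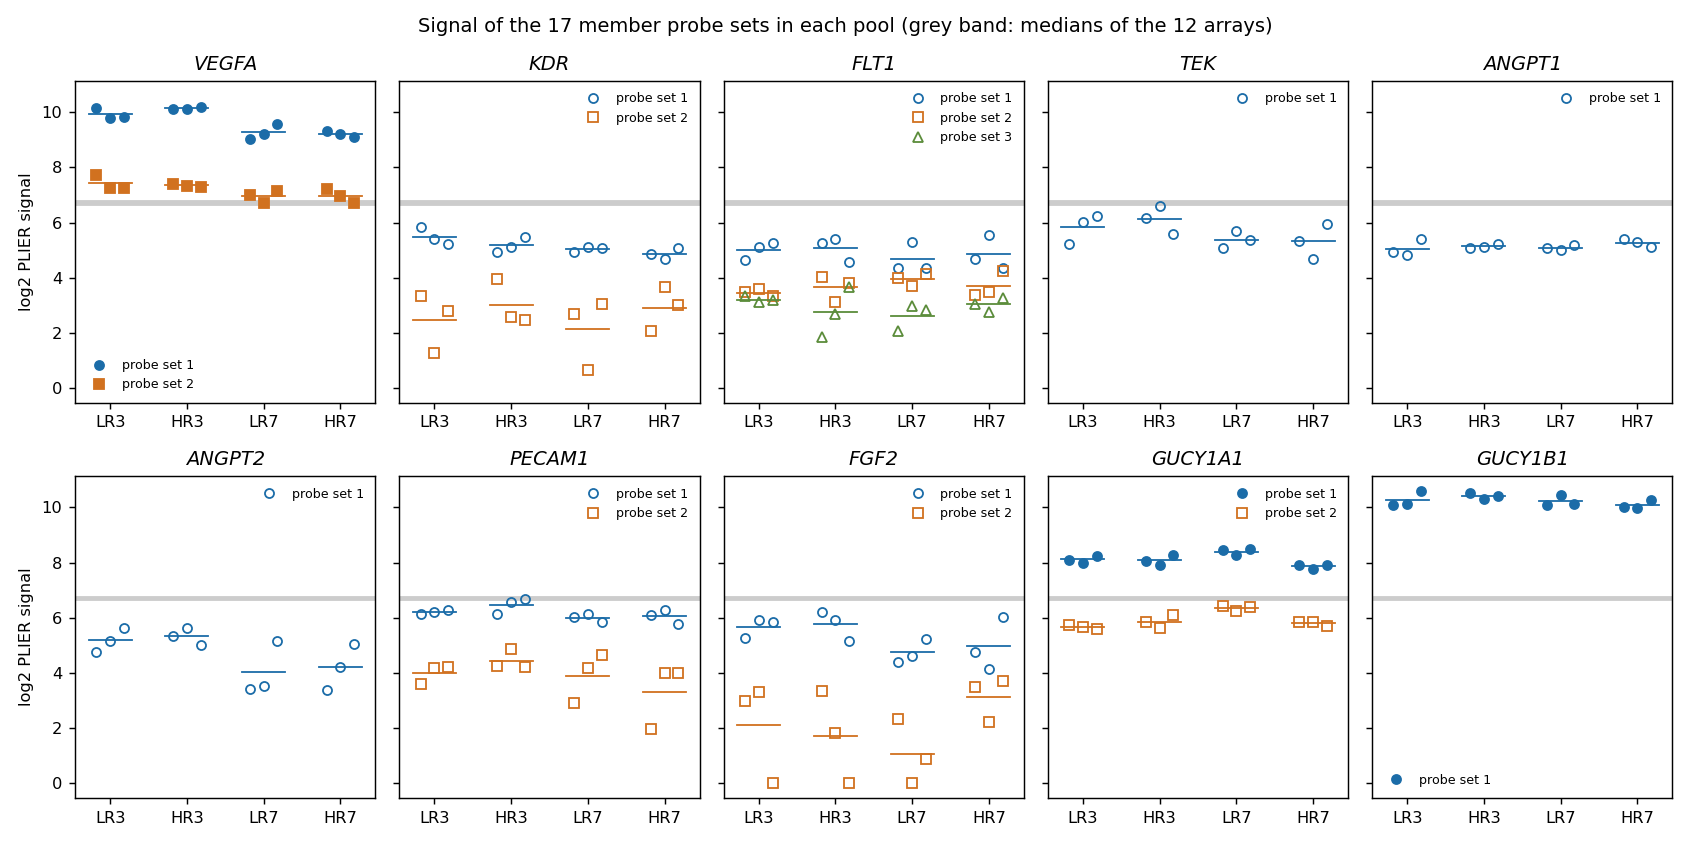
Log2 PLIER signal of each of the 17 probe sets in each of the 12 pools, by gene and group (filled symbols: tested; open symbols: not tested; horizontal lines: group means; grey band: range of the 12 array medians). The 6 day 7 pools of VEGFA probe set 1 lie at 9.03 to 9.56, below the 6 day 3 pools at 9.80 to 10.19, and both probe sets of GUCY1A1 are higher in all LR7 pools than in any HR7 pool.

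The first probe set of VEGFA read 10.16, 9.80 and 9.83 in the LR3 pools and 10.11, 10.12 and 10.19 in the HR3 pools. At day 7 it read 9.03, 9.21 and 9.56 in LR and 9.33, 9.22 and 9.09 in HR. All day 7 pools were thus below all day 3 pools, in HR as in LR, and the HR3 pools lay within a narrow range. Group means were 9.93 ± 0.20 in LR3, 10.14 ± 0.04 in HR3, 9.27 ± 0.27 in LR7 and 9.21 ± 0.12 in HR7 (SD, n = 3). VEGFA fell by 0.93 on the log2 scale in HR (SE 0.16, limma adjusted p = 0.00134), by 0.66 in LR (SE 0.16, limma adjusted p = 0.00737) and by 0.80 over both (SE 0.11, limma adjusted p = 0.000137).

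The second probe set of VEGFA is dimmer, close to the array median, and moved the same way by less. It read 7.72, 7.27 and 7.27 in LR3, 7.41, 7.34 and 7.29 in HR3, 7.00, 6.71 and 7.16 in LR7, and 7.21, 6.95 and 6.72 in HR7. Here too every day 7 pool was below every day 3 pool, although the highest HR7 pool came within 0.1 of the lowest day 3 pools. Over both receptivity groups the fall was 0.42 (SE 0.12, limma adjusted p = 0.0106). In LR it was 0.46 (SE 0.18, limma adjusted p = 0.0493), and in HR the change was -0.39, which did not pass (SE 0.18, limma adjusted p = 0.0921). The LR call was lost in most alternative settings and when any of 8 of the 12 pools was left out. The 2 probe sets, whose positions in the transcript are not given, were therefore alike in direction and unlike in size.

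These VEGFA calls stand against a background in which the day changed much of the table. In HR, 1 of the 4 tested probe sets of the 10 genes passed at an adjusted p under 0.05, where 41.5% of all tested probe sets did. In LR, 2 of 4 passed against a background of 44.7%, and over both groups 2 of 4 against 65.9%. A change with day was thus common on this chip, and with 4 tested probe sets these shares are no result about the genes as a set. Of all 24,016 probe sets, 7.08% were lower at day 7 without any overlap between the 6 arrays of each day. The 2 of VEGFA, which read 1 gene, were the 2 of the 17 that met this. That share includes untested probe sets and 1 direction only, so it cannot be set beside the 65.9%. The share among tested probe sets was not counted, and the 2 of 17 are no result about the genes as a set.

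By day within each receptivity group, 13 of the 17 probe sets had a lower mean at day 7 than at day 3 in HR and 13 of 17 in LR. Their median changes were -0.32 and -0.34, beside -0.04 over the chip in either group. Without overlap and lower at day 7 were 5 of 17 in HR, where 18.6% of all probe sets were, and 6 of 17 in LR, where 15.7% were. The 5 in HR were both of VEGFA, the second of PECAM1, the first of GUCY1A1 and that of GUCY1B1. The 6 in LR were both of VEGFA and the first of KDR, PECAM1 and FGF2 and the third of FLT1. Higher at day 7 without overlap in LR were both probe sets of GUCY1A1, by 0.28 and 0.68, and the second of FLT1, by 0.48. In HR, all 5 without overlap were lower. The share of all probe sets higher at day 7 without overlap was not counted, so these are no result about the genes as a set.

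**Figure D2:**
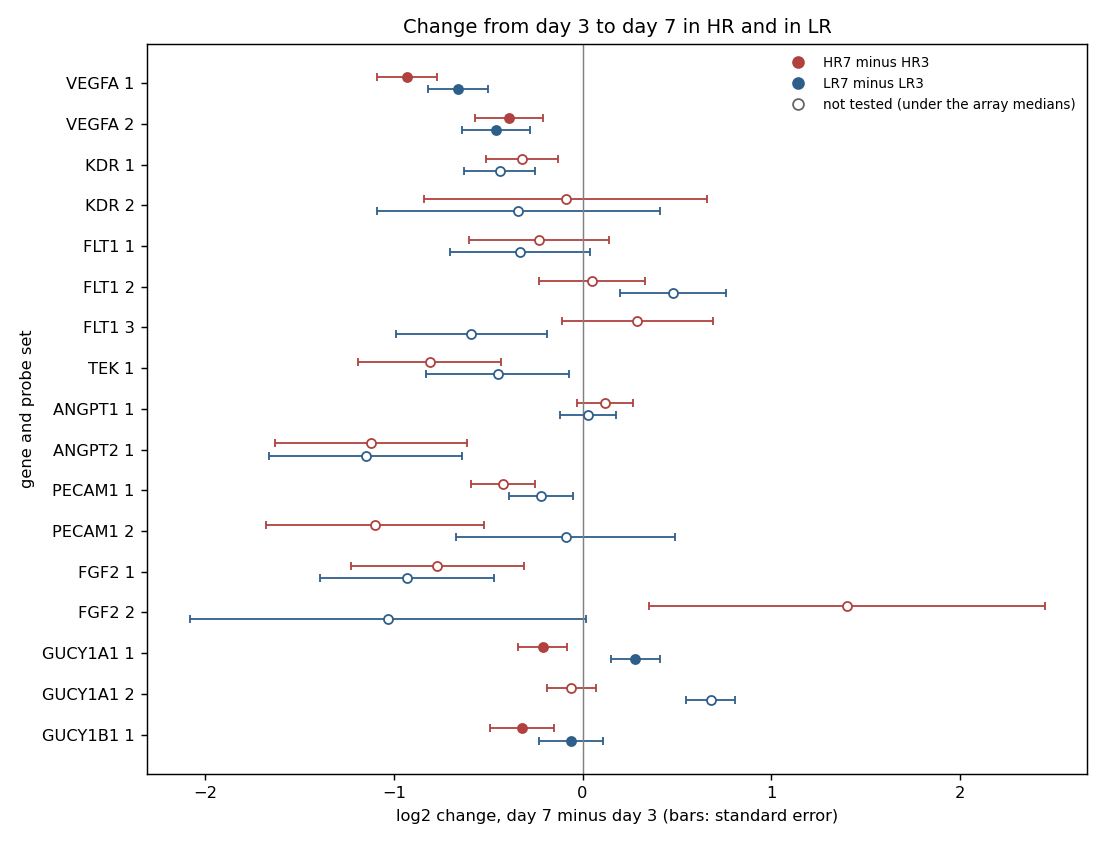
Log2 change from day 3 to day 7 of each probe set, in HR and in LR (points: difference of the group means of 3 pools; bars: standard error of the fit; open points: not tested). Both VEGFA probe sets lie left of 0 in both groups, ANGPT2 lies near -1.1 in both, and GUCY1A1 lies on opposite sides of 0 in HR and LR.

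ANGPT2, the context-dependent partner of TEK, had the largest change with day over both groups among the 17 probe sets, at signals below the array medians. It read 4.77, 5.16 and 5.62 in LR3, 5.35, 5.62 and 5.02 in HR3, 3.40, 3.54 and 5.16 in LR7, and 3.37, 4.23 and 5.04 in HR7. Pool 3 of both day 7 groups lay within the range of the day 3 pools, so the days overlapped. The change was -1.12 in HR, -1.15 in LR and -1.13 over both (SE 0.36). Over all 24,016 probe sets, of which 26.5% passed for day over both groups, its limma adjusted p was 0.0434. With 16 added to the signal before the logarithm, which damps low signals, the change over both groups was -0.66.

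ANGPT1, the activating ligand of TEK, varied little: its 12 pools lay between 4.82 and 5.42, with group means of 5.06 ± 0.30 in LR3, 5.15 ± 0.08 in HR3, 5.09 ± 0.09 in LR7 and 5.27 ± 0.15 in HR7 (SD, n = 3). Its change with day over both groups was 0.08 (SE 0.11). TEK itself read 5.23, 6.02 and 6.24 in LR3, 6.17, 6.61 and 5.60 in HR3, 5.07, 5.70 and 5.37 in LR7, and 5.34, 4.67 and 5.94 in HR7. Its pools overlapped between days, with a change over both groups of -0.63 (SE 0.27, limma adjusted p over all probe sets 0.113).

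FGF2, a growth factor for endothelial and stromal cells, had a first probe set at 5.26, 5.91 and 5.86 in LR3, 6.20, 5.92 and 5.15 in HR3, 4.38, 4.62 and 5.23 in LR7, and 4.77, 4.16 and 6.02 in HR7. The LR7 pools lay below the LR3 pools, and the HR7 pools overlapped those of HR3. The change over both groups was -0.85 (SE 0.32, limma adjusted p over all probe sets 0.0783). Its second probe set was at 0, the lowest value of the table, on an array of LR3, HR3 and LR7 each, and ranged to 3.70. With signals at the floor its differences, up to 2.06 between HR7 and LR7 with an SE of 1.05, rest on values that have no order at the floor.

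Of the VEGF receptors, KDR, which carries most of the endothelial response to VEGFA, had a first probe set at 5.83, 5.41 and 5.23 in LR3, 4.94, 5.12 and 5.49 in HR3, 4.95, 5.11 and 5.09 in LR7, and 4.85, 4.67 and 5.07 in HR7. The LR7 pools were below the LR3 pools, and HR3 and HR7 overlapped. The change over both groups was -0.38 (SE 0.13, limma adjusted p over all probe sets 0.0603). The second probe set of KDR, between 0.64 and 3.95, changed by -0.22 with an SE of 0.53.

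FLT1, the decoy-like receptor, is read by 3 probe sets whose directions differed. The first lay between 4.34 and 5.54 and changed over both groups by -0.28 (SE 0.26), the second lay between 3.12 and 4.26 and changed by 0.27 (SE 0.20), and the third lay between 1.84 and 3.68 and changed by -0.15 (SE 0.29). In LR the second was higher and the third lower at day 7 without overlap, by 0.48 and -0.59. At these signals, all in the lowest 33.4% of their arrays, no direction for FLT1 could be given.

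PECAM1, the adhesion molecule at the contacts of endothelial cells, read 6.15, 6.20 and 6.29 in LR3 and 6.15, 6.56 and 6.69 in HR3 on its first probe set. At day 7 it read 6.01, 6.13 and 5.85 in LR and 6.11, 6.28 and 5.76 in HR. LR7 lay just below LR3, HR7 overlapped HR3, and the change over both groups was -0.32 (SE 0.12, limma adjusted p over all probe sets 0.0802). The second probe set ranged from 1.97 to 4.85 and changed by -0.60 (SE 0.41).

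The subunits of soluble guanylate cyclase are encoded by genes that neighbour each other in the RefSeq annotation of assembly ARS-UCD2.0, with 0 annotated genes between them, and both subunits are needed for a working enzyme. GUCY1A1 read 8.11, 8.0 and 8.25 in LR3 and 8.05, 7.93 and 8.26 in HR3 on its first probe set. At day 7 it read 8.45, 8.26 and 8.49 in LR and 7.92, 7.77 and 7.92 in HR. The day 3 groups overlapped, whereas all LR7 pools were above all HR7 pools. The difference HR7 minus LR7 was -0.53 (SE 0.13), which is 1.44-fold, with an unadjusted p in limma of 0.00196 and an adjusted p of 0.437.

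The second probe set of GUCY1A1, below the array median, had the same arrangement. It read 5.74, 5.67 and 5.61 in LR3, 5.85, 5.62 and 6.10 in HR3, 6.42, 6.26 and 6.39 in LR7, and 5.83, 5.85 and 5.71 in HR7. The LR7 pools were above the other 9. HR7 minus LR7 was -0.56 (SE 0.13, limma adjusted p over all probe sets 0.663), and LR7 minus LR3 was 0.68 (SE 0.13, limma adjusted p over all probe sets 0.0104), in a comparison where 11.4% of all probe sets passed. The first probe set changed by 0.28 in LR (SE 0.13, limma adjusted p = 0.103) and by -0.21 in HR (SE 0.13, limma adjusted p = 0.215).

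GUCY1B1, the β1 subunit, read 10.10, 10.13 and 10.60 in LR3, 10.52, 10.32 and 10.42 in HR3, 10.08, 10.46 and 10.11 in LR7, and 10.02, 9.99 and 10.28 in HR7. HR7 was just below HR3, and the other pairs of groups compared overlapped. HR7 minus LR7 was -0.12 (SE 0.17, limma adjusted p = 0.997), and the change with day in HR was -0.32 (SE 0.17, limma adjusted p = 0.133). The α1 difference at day 7 thus had no counterpart of like size on the 1 probe set that the chip annotation gives to the β1 subunit. The difference between the subunits was not tested. A probe set that the study names for both subunits had a difference HR7 minus LR7 of -0.56, and which subunit it reads is not known here.

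Between HR and LR, 0 of the 4 tested probe sets passed at day 3, where 0.0% of all tested probe sets did in limma. At an unadjusted p under 0.05 there were 518 of 7339 by limma and 548 by an ordinary linear model, which passed 0 after adjustment. At day 7, 0 of 4 passed against a background of 0.0681%, and 331 of all tested probe sets had an unadjusted p under 0.05. Over both days, 0 of 4 passed against 0.0409%. The interaction of receptivity and day, which asks whether the change with day differed between HR and LR, passed for 0 of 4 and for 0.0% of all tested probe sets. Unadjusted p values under 0.05 in this interaction numbered 286 by limma and 264 by the ordinary model, which also passed 0 after adjustment.

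Lower in HR7 than in LR7 without overlap were 2 of the 17 probe sets, both of GUCY1A1, where 3.56% of all probe sets were. These 2 read 1 gene, which the paper, under the name GUCY1A3, already reported as lower in HR7 from the same arrays. The count is therefore not independent evidence. The interaction for the first probe set of GUCY1A1 was -0.49 (SE 0.19, unadjusted p in limma 0.0244, adjusted p = 1.0). That of the second, over all probe sets, was -0.74 (SE 0.18, unadjusted p in limma 0.00193, adjusted p = 1.0), so neither passed adjustment. For the first probe set of VEGFA, HR3 minus LR3 was 0.21 (SE 0.16, limma adjusted p = 0.79), HR7 minus LR7 was -0.05 (SE 0.16, limma adjusted p = 0.997) and the interaction was -0.26 (SE 0.22, limma adjusted p = 1.0). Among the untested probe sets, KDR, FLT1, TEK, ANGPT1, ANGPT2, PECAM1 and FGF2 overlapped between HR and LR at both days on every probe set.

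**Figure D3:**
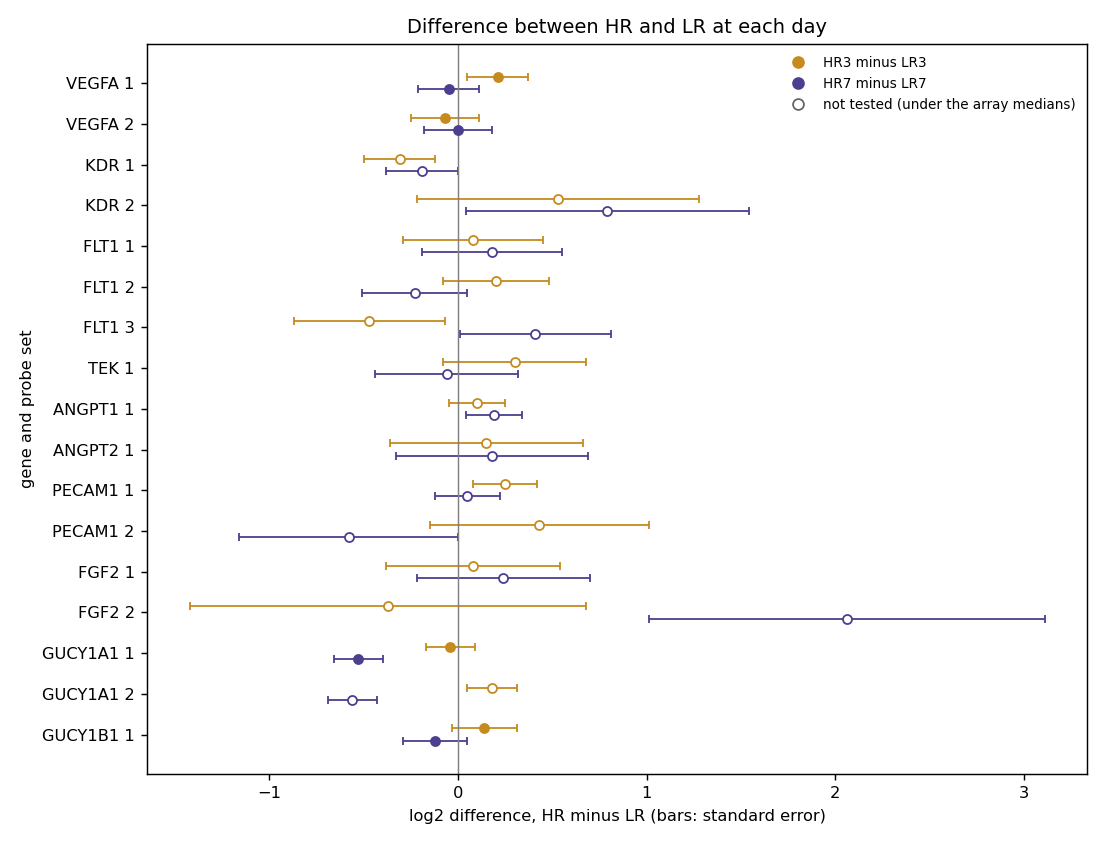
Log2 difference HR minus LR of each probe set at day 3 and at day 7 (points: difference of the group means of 3 pools; bars: standard error of the fit; open points: not tested). At day 7 the GUCY1A1 probe sets lie at -0.53 and -0.56 with a short bar, the second probe set of FGF2 has the widest bar, and both VEGFA probe sets lie near 0.

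The profile of VEGFA over the 12 pools was most like those of ANKRD29, TBL1X and SGSH among the named tested genes. After each profile was centred on its own mean, these differed from the first VEGFA probe set by a mean of 0.12, 0.122 and 0.123 per pool, where the median over all tested probe sets was 0.438. Their own changes with day were -0.73, -0.74 and -0.64.

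Among the other genes of these pathways, 10 of the VEGF family and its receptors were on the chip and 2 were tested. VEGFA fell, and VEGFB, a ligand of FLT1, changed by 0.20 (limma adjusted p = 0.204). Of 6 angiopoietin and TIE genes none was tested. Of 7 fibroblast growth factors and receptors 4 were tested: FGFR2, a receptor of epithelial cells, fell by 1.47 (SE 0.09, limma adjusted p = 7.14e-07) and FGFR4 fell by 1.43, while FGFR3 rose by 0.85 over both groups. FGF1, the other tested gene, changed by 0.28 (SE 0.16, limma adjusted p = 0.134). Thus 2 of the 4 were higher and 2 lower at day 7, where 65.9% of all tested probe sets passed for day. The median of the 4 was -0.57, beside -0.08 over all tested probe sets, but it lies between the 2 directions and gives no common shift.

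Of 21 other angiogenic genes 11 were tested, of which 5 rose and 3 fell over both groups, where 65.9% of all tested probe sets passed. The matrix-associated factor CCN2 rose by 1.59, the chemokine receptor CXCR4 by 1.10, and the vasoactive peptides ADM and EDN1 by 0.84 each, while MET rose by 0.30. For ADM the difference HR7 minus LR7 was 0.88 (SE 0.21, limma adjusted p = 0.419), which did not pass. The Notch ligand JAG1 fell by 2.04 (SE 0.16, limma adjusted p = 3.34e-06), CALCRL, the receptor for ADM, fell by 1.73, and CCN1 fell by 0.63.

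Of 7 tested inhibitors of vessel growth 3 rose and 2 fell, against the same background of 65.9%. THBS1, an inhibitor that binds growth factors and CD36, rose by 1.21 (SE 0.16, limma adjusted p = 8.13e-05), and its difference HR7 minus LR7 was -0.12. The protease ADAMTS1 rose by 1.04 and TIMP3, an inhibitor of metalloproteinases that blocks VEGFA binding to KDR, by 0.54. ADAMTS1 had means of 9.67 ± 0.20 in HR7 and 8.74 ± 0.24 in LR7 (SD, n = 3), a difference that did not pass. The chemokine CXCL10 fell by 1.95 and SERPINF1 fell by 0.69.

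Of 9 tested genes of the response to low oxygen, 6 rose and 1 fell over both groups, where 65.9% of all tested probe sets passed in either direction. Within HR alone 4 rose and 1 fell, and within LR alone likewise 4 and 1. The 9 had a median of 0.45 beside -0.08 over all tested probe sets. EPAS1, an oxygen-regulated transcription factor, rose by 1.25 (SE 0.21, limma adjusted p = 0.000413), BNIP3 by 0.78, EGLN1 by 0.77, the glucose transporter SLC2A1 by 0.72, and the glycolytic enzymes LDHA and PGK1 by 0.45 each. EGLN2 fell by 0.39, and HIF1A changed by 0.11, which did not pass.

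Of 14 genes of nitric oxide and cGMP signaling 5 were tested. CAV1, the caveolar protein that holds endothelial nitric oxide synthase inactive, rose by 0.82 (SE 0.13, limma adjusted p = 0.00033). The natriuretic peptide receptor NPR2, another guanylate cyclase, fell by 0.72 and the chaperone HSP90AA1 fell by 0.28, while GUCY1A1 and GUCY1B1 did not pass. NOS3, the endothelial synthase itself, was not tested, with means of 4.71 ± 0.35 in LR3, 5.22 ± 0.19 in HR3, 4.82 ± 0.37 in LR7 and 4.77 ± 0.28 in HR7 (SD, n = 3). No gene of the 7 pathway lists passed in HR3 minus LR3, HR7 minus LR7 or HR minus LR over both days.

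**Figure D4:**
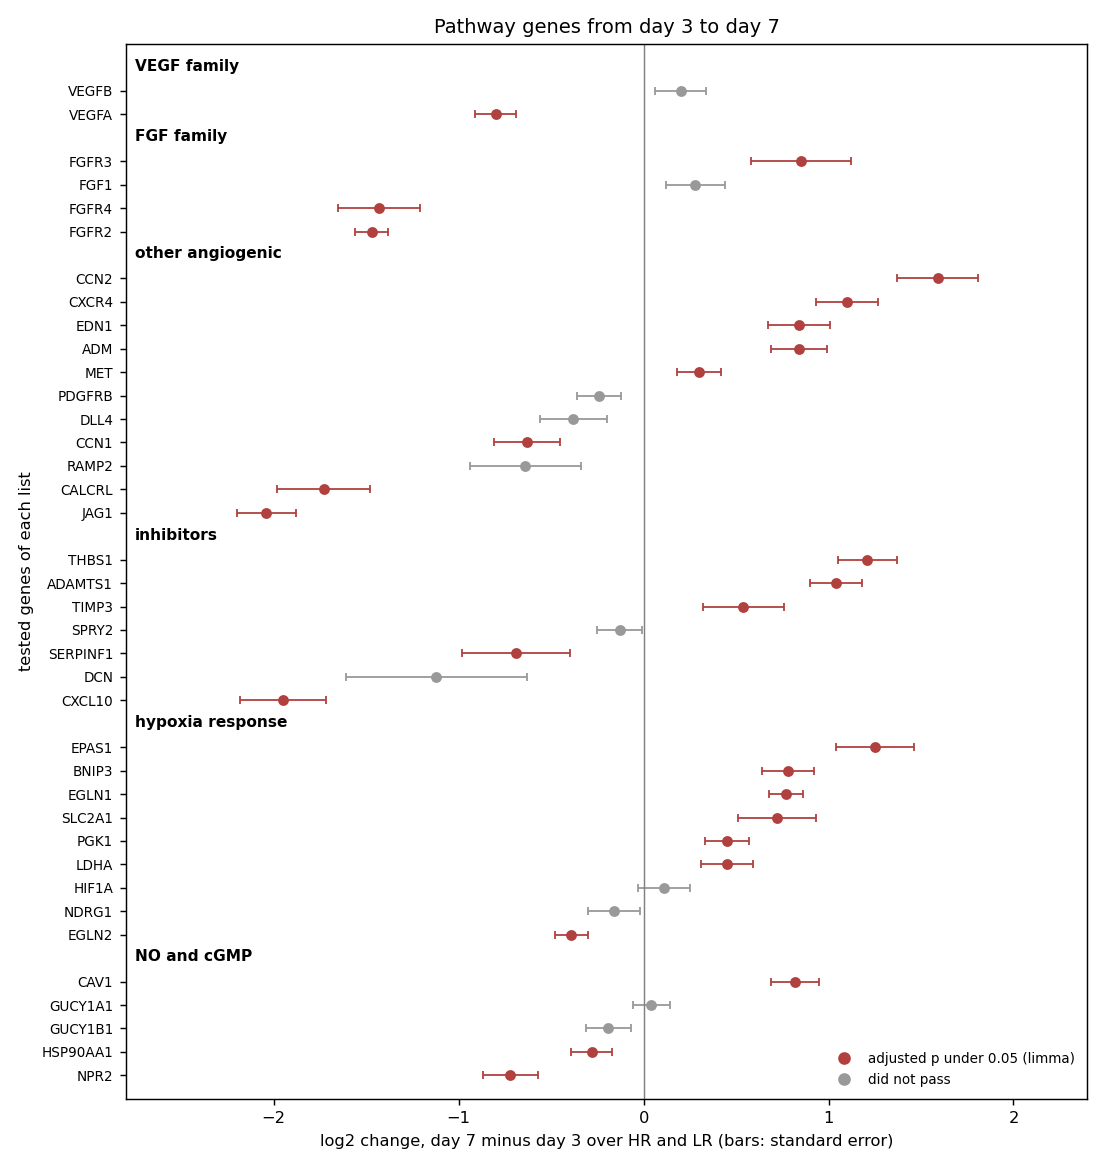
Log2 change from day 3 to day 7 over HR and LR of the tested genes of 6 pathway lists, 1 probe set per gene (bars: standard error; red: limma adjusted p under 0.05; grey: did not pass). VEGFA lies at -0.80, 7 of the 9 genes of the low oxygen response lie right of 0, and THBS1 lies at 1.21.

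A biopsy holds several cell types, and in bulk RNA fewer cells of a type and less RNA per cell cannot be told apart. The 19 endothelial markers on the chip, PECAM1 included, had a median change with day of -0.26, beside -0.04 over the chip. None of them was above the median on all 12 arrays, and of the 2 tested EMCN fell by 1.89 (SE 0.33, limma adjusted p = 0.000554) and RAMP2 changed by -0.64 (limma adjusted p = 0.0775). The log2 of their summed signal was 10.15 to 10.42 in LR3, 10.22 to 10.63 in HR3, 9.67 to 10.29 in LR7 and 9.52 to 10 in HR7.

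Epithelial markers were bright, with 10 of 12 above the median on all arrays and log2 sums between 14.63 and 15.11 over the 12 pools. Stromal markers summed to 12.72 to 13.86 in LR3, 13.76 to 14.18 in HR3, 12.26 to 13.45 in LR7 and 12.16 to 14.07 in HR7. Of 10 tested stromal markers 4 fell with day and 0 rose. Of 13 tested white blood cell markers 5 rose, all of myeloid cells and led by S100A12 at 4.15, and 5 fell. Beside these counts, 65.9% of all tested probe sets passed for day over both groups, so the counts are no result about the cell types. The white blood cell sums were 11.39 to 12.37 in LR3, 11.44 to 11.54 in HR3, 12.62 to 13.12 in LR7 and 13.21 to 14.01 in HR7. Pericyte and smooth muscle markers, 3 of 12 tested, had log2 sums of 9.53 to 9.96 at day 3 and 9.59 to 9.95 at day 7, and SMTN rose by 2.06 while MCAM fell by 0.60. Markers of red blood cells, 7 on the chip, summed to between 8.43 and 8.75. The part of these shifts in the VEGFA and ANGPT2 changes was not tested.

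A spiked control transcript, dap, read from both ends, is a measure of target preparation, and it moved with the groups. Its log2 signal at the 5′ end minus that at the 3′ end was -3.13 to -2.66 in LR3, -2.74 to -1.32 in HR3, -1.88 to -1.47 in LR7 and -2.30 to -1.77 in HR7. With this difference as a covariate, the change of VEGFA in LR was -0.50 on the first probe set (limma adjusted p = 0.227) and -0.16 on the second (limma adjusted p = 0.711), and neither passed. The dap values of LR3 and LR7 did not overlap, so within LR, day and target preparation cannot be told apart. Over both groups the first probe set still passed, at -0.72 (limma adjusted p = 0.00267), and the second did not, at -0.29 (limma adjusted p = 0.117).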

How the data were processed

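The deposited table holds log2 signals, which the authors made with PLIER in Affymetrix Expression Console. They also report an analysis in GCOS 1.1.1 with global scaling. Values were used as deposited, without 112 controls, and the groups came from the labels. The study's present calls were not used here, so the array median stood in for them. The annotation gives 13,292 probe sets 1 symbol, 86 several and 10,638 none. Group means were fitted over all 12 arrays in limma 3.58.1 (R 4.3.3), with Benjamini-Hochberg adjustment within each of 7 comparisons and a threshold of 0.05. P values measure the spread between pools. The fit was tested on simulated data. Tables and plots were made in Python 3.11.15. Members and gene lists were chosen with earlier results of these data known. All probe sets of the 10 genes are described. Each listed gene is read by its brightest probe set, and per comparison up to 5 called pathway genes per direction are named, with THBS1 and NOS3. The number of arrays limits the precision. Alternatives covered filters, scaling, moderation, array weights, a replicate block, the dap control and each pool left out. Probe positions and sequences were not used here.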

Additional observations from a re-analysis of the deposited data

How the results depend on the processing

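The fall of VEGFA probe set 1 passed in HR and over both groups under every alternative run, with changes of -0.98 to -0.86 in HR and -0.87 to -0.72 over both. Called member probe sets in LR numbered 2, and 1 with a stricter filter, no variation limit, quantile normalization, median centring, 16 added, an intensity trend, an ordinary linear model, array weights or the compared groups alone, 0 with the dap control, and 1 to 2 with a pool left out (1 without LR3 pool 1 or 2, any HR3 pool, LR7 pool 1 or 2, or HR7 pool 2). An adjusted p under 0.16 added the first probe set of GUCY1A1 in LR, at 0.103 in limma. Without either filter the LR calls were not the same pair. The second probe set of VEGFA was lost (limma adjusted p = 0.115) and the second of GUCY1A1 passed (limma adjusted p = 0.0104). In HR the count was 1, and 2 with array weights and 3 at an adjusted p under 0.16. Over both groups it was 2, and 4 without the array median filter or without either filter, 1 with the stricter filter and 1 with the dap control.

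Directions that turned belonged to differences that did not pass. VEGFA probe set 1, HR7 minus LR7 (-0.05), was 0.01 with array weights and -0.17 to 0.09 with a pool left out. VEGFA probe set 2 with the dap control was 0.18 in HR3 minus LR3, 0.05 in HR minus LR over both days and -0.27 in the interaction, and with a pool left out -0.15 to 0.08, -0.10 to 0.04 and -0.07 to 0.20. GUCY1B1, HR minus LR over both days, was -0.02 with median centring and -0.03 to 0.09 with a pool left out, and its LR7 minus LR3 was -0.18 to 0.10. GUCY1A1 probe set 1, HR3 minus LR3, was -0.13 to 0.04. Its HR7 minus LR7 stayed between -0.60 and -0.48, with adjusted p of 0.292 to 0.999.

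Over all tested probe sets, LR7 minus LR3 passed for 3280, but 320 with the dap control, 1957 with the compared groups alone and 2155 without LR7 pool 1. HR7 minus HR3 passed for 3045, and 1926 without HR7 pool 2. HR7 minus LR7 passed for 5, and 2 to 9 under the alternatives. HR minus LR over both days passed for 3 (0 to 6), HR3 minus LR3 for 0 (0 to 5) and the interaction for 0 (0 to 2).

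Pool numbers were checked as pairs through the correlation of residuals, which was 0.198 to 0.463 for LR3 with LR7, 0.136 to 0.445 for LR7 with HR7, whose heifers differ by the outcome of the transfer, and -0.06 to 0.118 for HR3 with HR7. With the pool number as a replicate block, the member counts were 1 in HR, 2 in LR, 2 over both and 0 elsewhere, as without it. The cause of these differences between settings was not tested.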

Other observations

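Probe sets that carry no symbol in the chip annotation, but that the study's lists of changed transcripts name KDR or guanylate cyclase, are not independent evidence, since those lists were drawn from these arrays. The first of 2 named KDR read 7.61, 6.40 and 6.65 in LR3, 6.66, 6.77 and 6.07 in HR3, 4.77, 6.03 and 5.27 in LR7, and 5.01, 6.53 and 6.09 in HR7. Its change with day was -1.53 in LR and -0.62 in HR, and that of the second was -0.97 and -0.65, beside -0.44 and -0.32 for the first KDR probe set named by the chip annotation. These differences between probe sets were not tested. A probe set given the names of both guanylate cyclase subunits read 9.90, 9.77 and 9.70 in LR7 and 9.12, 9.18 and 9.40 in HR7, a difference of -0.56 without overlap, beside means of 9.66 ± 0.08 in LR3 and 9.58 ± 0.20 in HR3 (SD, n = 3). Which subunit it reads is not known here.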
